A study of Homo sapiens and Mus musculus with 21 samples.

Results

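The comparison described here set CUTLL1 cells treated with ciclopirox against CUTLL1 cells treated with the solvent DMSO. Its members were the 6 libraries that the labels give to this experiment, 3 with DMSO and 3 with ciclopirox, out of 21 samples in the series. CUTLL1 is a human cell line of T-ALL, the acute lymphoblastic leukemia of T cells, and all 6 libraries came from that line with no hairpin or other genetic change named. Ciclopirox was given at 5 µM, as the name of the deposited table states, and the time of treatment was not found in the labels. The rest of the series concerns DHX15, a DEAH-box RNA helicase, in 9 CUTLL1 libraries with DHX15 or control hairpins, in RNA immunoprecipitation and in mouse thymus. What was measured was poly(A)+ RNA, as normalised read counts per gene.

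Ciclopirox is a synthetic antifungal of the hydroxypyridone class that binds iron and other trivalent metal ions. Several enzymes that need iron are known to lose activity when it is chelated. They include deoxyhypusine hydroxylase (DOHH), which completes the hypusine residue of the translation factor eIF5A, the small subunit of ribonucleotide reductase (RRM2), which makes deoxynucleotides, and the prolyl hydroxylases (EGLN genes) that mark hypoxia-inducible factor (HIF) for destruction. In T-ALL, NOTCH1 and MYC are known drivers of growth, and ribosome production is one of the main outputs of MYC.

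The RNA of CUTLL1 cells differed widely between the treatments. Of 16825 genes with at least 10 normalised counts in at least 3 libraries, 8157 (48.5%) passed limma's two-sided test, with p-values adjusted by Benjamini-Hochberg and a threshold of 0.05. Of these, 3956 (23.5% of genes tested) were higher with ciclopirox and 4201 (25.0%) were lower. Large rises were more numerous than large falls: 1631 genes (9.69%) were at least 2-fold higher and 935 (5.56%) at least 2-fold lower, while 130 were at least 8-fold higher and 16 at least 8-fold lower. Over all genes tested the median log2 difference, ciclopirox minus DMSO, was -0.02, and the median standard error was 0.145. In 9419 of the 16825 genes the values of the groups did not overlap. Remarks below on groups that lie apart are to be read against that number. The direction followed the level of expression. Among 3979 genes with a mean of 10 to 100 normalised counts, 882 were higher and 422 lower, whereas among 552 genes with a mean of 10000 or more, 62 were higher and 258 lower.

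**Figure D1:**
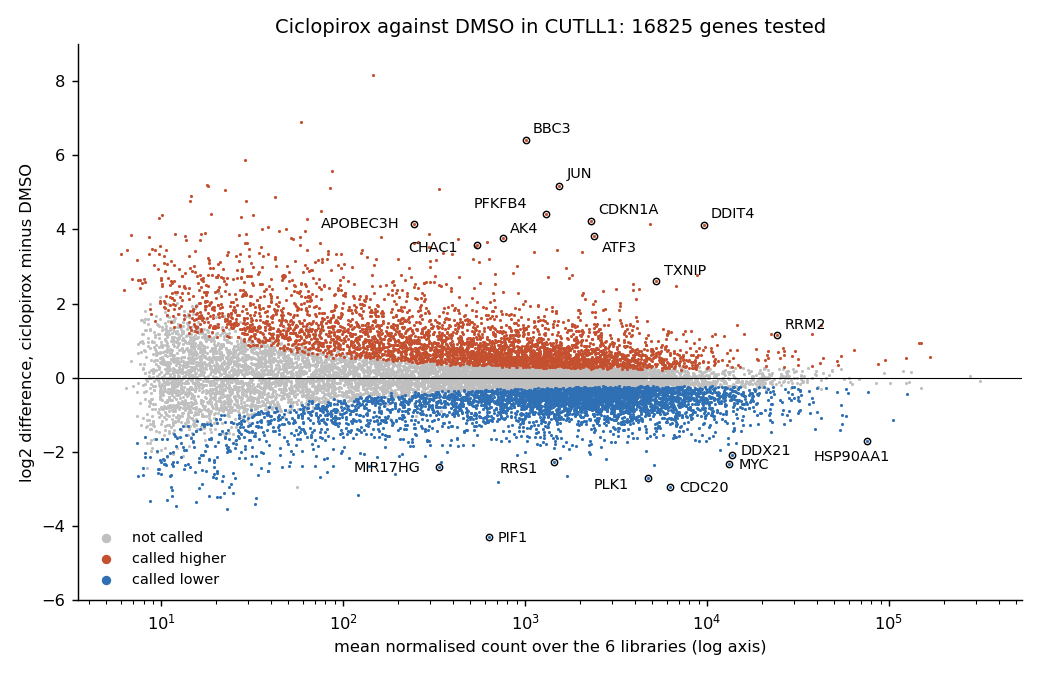
Each point is 1 of 16825 genes, with its mean normalised count over the 6 libraries on a log axis and its log2 difference, ciclopirox minus DMSO, on the vertical axis; red and blue points were called higher and lower (limma, adjusted p under 0.05) and grey points were not called. The labelled rises reach 6.40 (BBC3) and the labelled falls reach -4.29 (PIF1), and blue points outnumber red ones at the right-hand end.

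The 6 libraries held 32451469 to 37177509 reads counted in genes. On the first principal component, which took 68.5% of the variance, all DMSO libraries lay on one side and all ciclopirox libraries on the other. The second component (12.0%) set DMSO library 1 (42.4) apart from DMSO libraries 2 and 3 (-17.05 and -20.6), and leaving it out raised the number of genes called from 8157 to 9055. The labels do not state whether replicates were separate cultures; every p-value therefore reflects the scatter among these 6 libraries alone, and that scatter may be technical. All 16 T-ALL line markers checked, such as CD3E, CD7, LCK and NOTCH1, were expressed well enough to be tested. Of markers of other lineages, none of 8 erythroid, 1 of 7 B cell, 3 of 11 myeloid and 2 of 10 stromal and epithelial markers were expressed well enough to be tested. These were CD79A, ITGAM, CD68, CSF1R, VIM and PECAM1, and the B cell marker PAX5 and the myeloid markers CD14 and MPO were not among them. CD79A rose by 0.43 and VIM by 0.60 on the log2 scale, and ITGAM, named after its values were seen, had 4.83, 0.994 and 0 with DMSO and 12.4, 15.1 and 11.5 with ciclopirox, which is near the floor of 3 reads in the DMSO libraries. CD79A did not pass with median-centring (adjusted p = 0.0659) or without DMSO library 2 or 3 or ciclopirox library 1 or 2, and ITGAM did not pass without ciclopirox library 1 or 2.

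Several genes with a mean of at least 100 normalised counts rose by more than 8-fold, and some of them are described here. BBC3 (ENSG00000105327, chromosome 19, 47220824 to 47232860 on GRCh38), which encodes the pro-apoptotic protein PUMA, stood at 29.0, 19.9 and 19.4 with DMSO and 1953, 2418 and 1617 with ciclopirox. JUN (ENSG00000177606, chromosome 1, 58780791 to 58784047), the founding AP-1 transcription factor, stood at 109.8, 77.5 and 63.4 and 2929, 3193 and 2858. For BBC3 and JUN the lowest ciclopirox library was above the highest DMSO library by more than 10-fold. PPFIA4, a liprin gene, rose from 18.6 ± 5.39 to 652 ± 63.5 (SD, n = 3). PFKFB4, whose product sets the level of the glycolytic activator fructose 2,6-bisphosphate, rose from 114 ± 9.48 to 2476 ± 127, a log2 difference of 4.43 (SE 0.123, limma adjusted p = 6.15e-09).

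APOBEC3H, a cytidine deaminase that restricts retroviruses, rose from 25.7 ± 5.45 to 467 ± 82.2 normalised counts. It moved more than the other APOBEC3 genes tested: APOBEC3G and APOBEC3F had log2 differences of 0.85 and 0.84, and APOBEC3C, at 0.53, did not pass, although without DMSO library 1 it did (log2 difference 0.925, limma adjusted p = 0.0326). BMF, which encodes a BH3-only death protein, went from 44.6, 45.7 and 24.5 with DMSO and 526, 641 and 502 with ciclopirox. The adenylate kinase gene AK4, the antiproliferative gene BTG2, the acetyltransferase-like gene NATD1, the peptide hormone gene ADM2, the costimulatory ligand gene TNFSF9 and the cytoskeletal gene KANK2 all rose by 3.53 to 3.76 on the log2 scale. So did MIR210HG, the host transcript of the hypoxia-induced miR-210, from 37.3 ± 7.01 to 477 ± 24.9. The mature miRNA was not measured by these poly(A)+ libraries. DDIT4-AS1 rose by 4.13 beside its neighbour DDIT4 (4.11). Whether counting used strand is not given in the sources used here, so reads of a gene and an antisense partner may not be separable. RefSeq antisense genes overlap ARRDC3, BHLHE40, CARS, CDK6, CEBPB, DUSP8, E2F8, EIF1AX, FAS, FKBP4, FOSL2, GATA3, GCLC, HIF1A, HMMR, HYOU1, IER3, JDP2, LIG1, NR4A1, PFKFB3, RUNX3, SLC7A11, TNFRSF10B, TXNRD1, TYMS, VIM and VLDLR, all named below or above, and the values of these genes are uncertain to that extent.

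**Figure D2:**
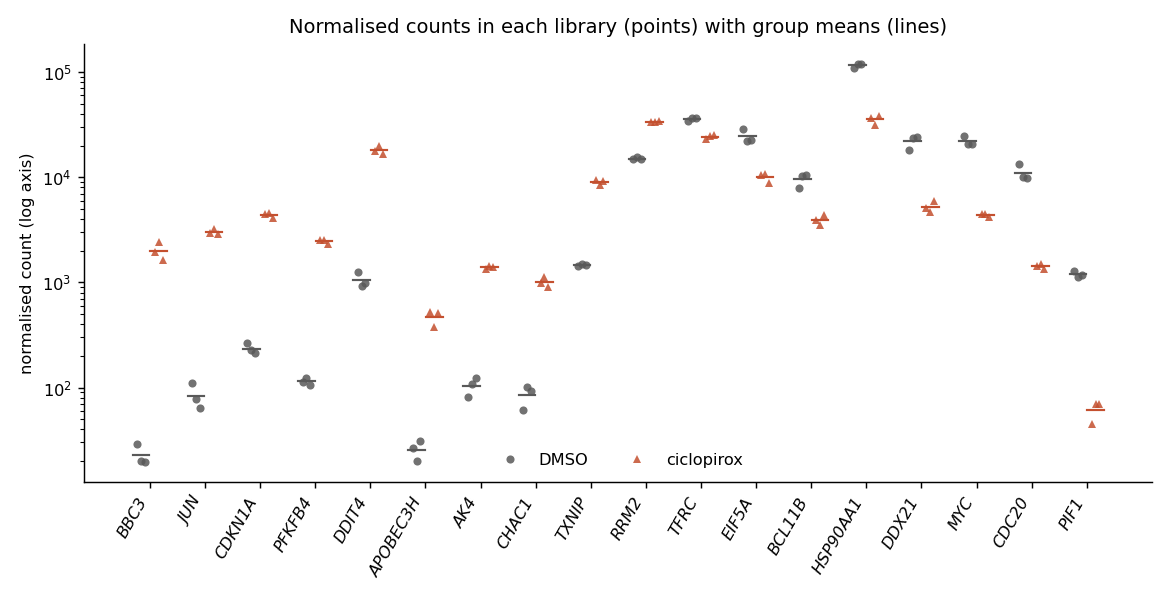
Normalised counts (log axis) of 18 genes in the 3 DMSO libraries (grey circles) and the 3 ciclopirox libraries (red triangles), with lines at the group means. The groups do not overlap in any of the 18 genes, as in 9419 of all 16825 genes tested. BBC3 shows the widest gap and TFRC the narrowest.

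Falls of that size were fewer, and most of the falls described next were smaller. PIF1, a DNA helicase gene, had 1291, 1126 and 1176 normalised counts in the DMSO libraries and 44.9, 70.0 and 69.0 in the ciclopirox libraries. CDC20 (ENSG00000117399, chromosome 1, 43358981 to 43363203), the activator of the anaphase-promoting complex, fell to 1425, 1499 and 1337 from 13302, 10101 and 9824. NDST3, a heparan sulfate synthesis gene, had a log2 difference of -2.65, BMP10, a growth factor gene, -2.40, and LONRF2 -2.28. MIR17HG, the host transcript of the miR-17-92 cluster, fell from 564 ± 69.8 to 106 ± 18.2. MYC, which activates that cluster in many tumours, fell from 24888, 20829 and 20634 to 4522, 4492 and 4160.2 (log2 difference -2.33, SE 0.0964, limma adjusted p = 8.41e-08). In both genes each ciclopirox library lay below every DMSO library.

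Known target genes of HIF were mostly higher. Of 25 HIF targets outside glycolysis that were tested, 19 rose and 1 fell, with a median log2 difference of 1.39 against -0.02 over all genes tested. Here and below, counts of list members are to be read against the 23.5% of all genes tested that were higher and the 25.0% that were lower. The gene that fell was CITED2, a HIF antagonist (-0.65; named after its values were seen). This list was drawn up with earlier results of these libraries known, as were all lists below. Stretches upstream of 4 genes are shown because they carry the core of the hypoxia response element, ACGTG, which HIF binds. They run 5′ to 3′ on the gene's strand, come from RefSeq promoters on GRCh38.p14 and end before the annotated gene start, with ACGTG or its reverse complement CACGT in capitals.
AK4 (chr1:65147432-65147511, plus strand): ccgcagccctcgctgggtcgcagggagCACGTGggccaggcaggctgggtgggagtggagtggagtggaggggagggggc
BNIP3 (chr10:131982004-131982083, minus strand): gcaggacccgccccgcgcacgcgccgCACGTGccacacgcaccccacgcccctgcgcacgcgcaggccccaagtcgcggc
P4HA1 (chr10:73096907-73096986, minus strand): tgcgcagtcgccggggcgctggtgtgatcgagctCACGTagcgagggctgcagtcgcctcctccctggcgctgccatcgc
ENO2 (chr12:6914440-6914519, plus strand): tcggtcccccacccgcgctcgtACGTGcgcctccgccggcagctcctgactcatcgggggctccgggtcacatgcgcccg
In AK4 and BNIP3 the match reads CACGTG, which is also an E-box. AK4, a mitochondrial matrix adenylate kinase, had 80.8, 107 and 123 normalised counts in the DMSO libraries and 1354, 1439 and 1410.4 in the ciclopirox libraries. BNIP3, a mitophagy receptor, had 1521, 1549 and 1439.7 with DMSO and 6684, 6461 and 6613 with ciclopirox, and its relative BNIP3L had a log2 difference of 2.52. P4HA1, a collagen prolyl hydroxylase subunit, had 1036, 1061 and 1079.8 with DMSO and 3771, 3255 and 3784 with ciclopirox. Each of these genes was above all DMSO libraries in every ciclopirox library.

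Across promoters, at least 1 match to ACGTG on either strand was found in 13 of 21 HIF targets outside glycolysis that had a RefSeq promoter, which is 61.9%, against 26.3% of 10807 promoters of genes tested. The window was 250 bases before to 50 after the gene start. The glycolysis list was nearer to the background, at 31.8% of 22 promoters. Among all 941 promoters of genes at least 2-fold higher the share was 20.0%, lower than over all genes tested. Among 532 promoters of genes at least 2-fold lower it was 30.5%. Lists that fell also had high shares, at 52.4% for ribosome biogenesis and 51.5% for SR proteins, hnRNPs and their kinases. The element was therefore not particular to genes that rose. A match is a run of letters in a window and not a measured binding site.

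HIF1A RNA itself was lower with ciclopirox, at 968, 1156 and 1228 with DMSO and 598, 723 and 899 with ciclopirox, a log2 difference of -0.61 (limma adjusted p = 0.00826). EPAS1, which encodes HIF-2 alpha, was higher, at 366, 343 and 334 and 830.1, 891 and 992. ADM, which encodes the vasodilator adrenomedullin, had no read in the DMSO libraries and 128, 116 and 108 normalised counts with ciclopirox, at least 36.5-fold higher over 3 reads per library. Members with no read in any DMSO library passed the filter only through ciclopirox libraries, so they could not have come out lower. With such members set to their lower bounds, the median of the list stayed at 1.39. A bound above the median, as that of ADM, cannot move it, so this is no check of the list. BHLHE40, a clock and stress repressor, rose from 463 ± 29.7 to 3168 ± 283.

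Glucose metabolism genes rose with them. Of 25 genes of glucose uptake and glycolysis, 20 rose and 4 fell (median 0.79), or 2 without ciclopirox library 1. The bifunctional enzyme gene PFKFB3 rose from 1343 ± 41.7 to 7106 ± 237, the neuronal-type enolase gene ENO2 from 1363 ± 89.7 to 5249.7 ± 218, and the liver-type phosphofructokinase gene PFKL from 2035 ± 262 to 5498 ± 575. The glucose transporter gene SLC2A3 rose from 402 ± 38.9 to 1440.4 ± 72.7. Smaller rises came in late and central enzymes: PKM had a log2 difference of 1.19, ENO1 0.93 and GAPDH 0.56. GAPDH had 164634, 123862 and 122029 with DMSO and 202979, 219553 and 178237 with ciclopirox, and it did not pass with quantile normalisation (adjusted p = 0.0535). TXNIP, which lowers glucose uptake and binds thioredoxin, rose from 1443, 1507 and 1462 to 9475, 8513 and 9154. Of 8 genes of its family and partners 3 rose and 4 fell (median -0.06). Its relatives ARRDC4 and ARRDC3 had log2 differences of 0.86 and 0.90, whereas thioredoxin (TXN) had -0.57 and thioredoxin reductase (TXNRD1) -0.86. The other falls were MLX (-0.46) and MLXIP (-0.38), which form a glucose-sensing transcription factor; MLXIP was named after its values were seen and did not pass with quantile normalisation or without ciclopirox library 1.

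Genes of iron handling changed in shares close to those of all genes. Of 17 genes of iron uptake, storage and sensing, 4 rose and 5 fell (median -0.08), beside 23.5% and 25.0% of all genes tested, so the counts show nothing particular to the list. TFRC, the transferrin receptor, whose mRNA is known to be stabilised when cells lack iron, had 33931, 36915 and 36598 normalised counts in the DMSO libraries and 23022, 24647 and 25515 in the ciclopirox libraries. Its log2 difference was -0.55 (SE 0.0833, limma adjusted p = 0.000309), and the groups did not overlap. FTH1, the ferritin heavy chain, had 31816, 24364 and 23936 with DMSO and 28848, 29338 and 24638 with ciclopirox; these groups overlapped, and its log2 difference of 0.06 did not pass (adjusted p = 0.726). IREB2, which encodes iron regulatory protein 2, fell from 4321 ± 474 to 2152 ± 205, and the zinc and iron transporter gene SLC39A14 had a log2 difference of -0.94.

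Of 28 iron-sulfur and haem genes 4 rose and 7 fell (median -0.15), beside 23.5% and 25.0% of all genes tested, so the falls were no more frequent than over all genes. FDXR, the mitochondrial ferredoxin reductase gene and a known p53 target, rose from 1009 ± 102 to 5297 ± 517. GLRX5, a carrier of iron-sulfur clusters, had a log2 difference of -0.87. ALAS1, the first enzyme of haem synthesis, had 0.76.

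Among 33 iron-dependent dioxygenases tested, 9 rose and 8 fell, with a median of 0.01; these shares are close to the 23.5% and 25.0% of all genes tested, so single members are described and not the group. The rises of greatest size were those of P4HA1 and of the HIF prolyl hydroxylases. EGLN3 rose from 237 ± 6.52 to 718 ± 66.1 and EGLN1 from 1019 ± 45.5 to 3009 ± 239.9. The histone demethylase genes KDM4B and KDM3A had log2 differences of 1.22 and 0.89. RIOX1, a ribosomal oxygenase gene, fell by 0.94 on the log2 scale.

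Of 15 genes of hypusine and deoxynucleotide synthesis 7 rose and 1 fell (median 0.32). The fall was that of EIF5A. EIF5A, the substrate of hypusination, had 28713, 22142 and 22681 normalised counts in the DMSO libraries and 10576, 10665 and 8916 in the ciclopirox libraries, a log2 difference of -1.28 (limma adjusted p = 1.09e-05). DOHH had 1824, 1365 and 1418 with DMSO and 1149, 1353 and 1099 with ciclopirox and did not pass (adjusted p = 0.0514). DOHH passed as lower with DESeq2, with a pseudocount of 5, with a minimum of 50, with median-centring (adjusted p = 0.0212), without DMSO library 2 and without ciclopirox library 2. The ribonucleotide reductase subunit gene RRM2 rose from 14854, 15475 and 14912 to 33287, 33491 and 34205, a narrow spread in both groups. RRM2B, the p53-inducible subunit, had a log2 difference of 0.81. The thymidine kinase genes TK1 and TK2 rose by 1.83 and 1.11, and thymidylate synthase (TYMS) by 0.54.

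p53 target genes rose almost without exception. Of 31 targets tested, 29 rose, none fell, and the median log2 difference was 1.27. SESN2, an inhibitor of mTORC1 that also belongs to the stress response list, rose from 467 ± 38.1 to 3018 ± 366. EDA2R, a receptor of the tumour necrosis factor family, had no read with DMSO and 38.2, 44.4 and 25.9 with ciclopirox, at least 11.2-fold higher over 3 reads per library. It passed the filter only through the ciclopirox libraries, so within the count of rises it could not have come out lower. CDKN1A, the inhibitor p21, had 263, 229.6 and 212 with DMSO and 4521, 4569 and 4066 with ciclopirox, and PHLDA3, an AKT inhibitor, had 313, 186 and 262 with DMSO and 2855, 3259 and 2122 with ciclopirox.

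In the BCL2 family 8 of 15 members rose and 4 fell (median 0.44). The number of falls was 2 with edgeR and with TMM scaling, and 1 with quantile normalisation; it was also 2 without DMSO library 2 or 3 or ciclopirox library 1 or 3. BIK, a BH3-only gene, rose from 363 ± 52.9 to 1201 ± 102, BAX, a pore-forming effector, from 2308 ± 398 to 4653 ± 357, and the survival gene BCL2L2 from 312 ± 23.1 to 735 ± 88.0. Among 20 death receptor and caspase genes 6 rose and 4 fell, or 2 without DMSO library 3 or ciclopirox library 1 or 2; over all genes tested 23.5% rose and 25.0% fell, and these counts are near that. The receptor genes TNFRSF10B (DR5) and FAS had log2 differences of 1.75 and 1.08, and the initiator caspase genes CASP9 and CASP10 had 1.04 and 1.04. CYCS, which encodes cytochrome c, fell from 15543 ± 376 to 6781 ± 575.

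AP-1 genes were mostly higher. Of 14 AP-1 and ATF genes 9 rose and 2 fell (median 1.49). ATF3, a stress-induced repressor, rose from 309, 319 and 323 to 4585, 4511 and 4365. FOS, the usual partner of JUN, rose from 25.3, 24.8 and 13.3 to 183, 287 and 231. JDP2, an inhibitor of AP-1, had a log2 difference of 3.21, FOSL2 2.51 and the small MAF gene MAFF 2.26. Another small MAF gene, MAFK, was among those that fell.

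Activation-induced genes, which T cells switch on after receptor stimulation, rose in 18 of 30 cases and fell in 3 (median 0.85). EGR1 rose from 550.2, 487 and 436 to 1717, 2028 and 1841. The phosphatase gene DUSP8 had no read with DMSO and 54.5, 53.9 and 64.2 with ciclopirox, at least 17.8-fold higher over 3 reads per library. DUSP8 too passed the filter only through the ciclopirox libraries and could not have come out lower. The groups were also apart in DUSP10, a phosphatase of the stress kinases, at 73.6, 61.6 and 55.2 with DMSO and 211, 216 and 228 with ciclopirox. KLF10, NR4A1 and IER3 had log2 differences of 1.17, 1.83 and 1.17.

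Genes of the integrated stress response, which ATF4 drives when the translation factor eIF2 is phosphorylated, rose in 15 of 23 cases and fell in 3 (median 0.65); the falls were 5 with median-centring or without DMSO library 1 and 1 with quantile normalisation. CHAC1, which degrades glutathione, had 61.5, 100.4 and 92.0 normalised counts in the DMSO libraries and 984, 1126 and 896 in the ciclopirox libraries. VLDLR, a lipoprotein receptor, rose from 355 ± 43.5 to 2309 ± 155, PPP1R15A (GADD34), which restores translation, from 392 ± 56.6 to 1552 ± 149.7, and CARS, the cysteine tRNA ligase, from 2094 ± 219 to 5005 ± 228. CEBPB had a log2 difference of 1.69. The amino acid response element TGATGNAA, searched on both strands, was found in 5 of 22 promoters of this list (22.7%), against 1.71% of promoters of all genes tested. With bases before the start only the shares were 13.6% and 1.42%. The element was not particular to this list. It was found in 18.8% of 16 promoters of amino acid transporters, and in none of them before the start. Among promoters of all genes at least 2-fold higher the share was 2.13%.

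Amino acid supply genes moved in part with that list. Of 14 genes of serine, proline, asparagine and one-carbon synthesis 7 rose and 2 fell (median 0.34). PHGDH, which begins serine synthesis, rose from 7893 ± 1199.9 to 21155 ± 1752, PSAT1 from 4865 ± 116 to 11555 ± 288, and the mitochondrial one-carbon genes SHMT2 and MTHFD2 by 1.17 and 1.17 on the log2 scale. CBS, which opens the route from homocysteine to cysteine, rose by 1.67. PYCR3, a proline synthesis enzyme, went the other way, with 684, 524 and 604 with DMSO and 179, 177 and 152 with ciclopirox; the gene TIGD5 overlaps it.

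Of 18 amino acid transporter genes, 8 rose and 4 fell (median 0.22), or 2 without ciclopirox library 1. The glycine transporter gene SLC6A9 had 163, 246 and 191 with DMSO and 1539.9, 1739.7 and 1527 with ciclopirox. The cationic transporter gene SLC7A3 rose from 67.0 ± 12.5 to 533 ± 52.7 and the large neutral transporter gene SLC43A1 from 212 ± 37.5 to 1497 ± 37.6. SLC7A11, the cystine importer, rose by 1.59, and SLC3A2, its heavy chain, by 1.14, while SLC38A5, a glutamine carrier, had -0.93.

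Glutamine-using enzymes were mostly lower: 3 of 15 rose and 8 fell (median -0.39). The purine and pyrimidine genes PPAT, PFAS and CAD had log2 differences of -1.40, -0.87 and -0.72. The transaminase gene GPT2 rose from 719 ± 54.3 to 3371 ± 165. Among polyamine genes ODC1, AMD1 and SRM had -1.27, -1.32 and -1.22, whereas SMOX, which oxidises spermine, had 1.40. In all 4 of 10 polyamine genes rose and 6 fell.

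Ribosome biogenesis genes fell as a whole, whereas 72 of 74 genes of the ribosomal proteins themselves did not pass. All 50 ribosome biogenesis genes tested were lower, with a median of -1.17 and a range of -2.28 to -0.39. RRS1, which builds the large subunit, had 2509.7, 2358 and 2302 with DMSO and 447, 619 and 424 with ciclopirox. DDX21, a nucleolar helicase, had 18122, 23875 and 24161 with DMSO and 5064, 4647 and 5921 with ciclopirox, and LTV1, a small subunit export factor, had a log2 difference of -2.12. WDR43, PNO1 and RRP9, all of small subunit assembly, had -1.97, -1.83 and -1.81.

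Genes of RNA polymerases I and III followed in 24 of 34 cases, with 2 rises (median -0.60); the rises were 4 without DMSO library 1, and 1 with median-centring or without any 1 of DMSO libraries 2 and 3 and ciclopirox libraries 1 and 2. POLR1B, the second subunit of polymerase I, fell from 4114 ± 224 to 1291 ± 92.9, POLR1A, the largest, from 7336 ± 135 to 3078 ± 232, and POLR3G, a polymerase III subunit of proliferating cells, from 1923 ± 365 to 619 ± 116. Of 74 cytosolic ribosomal protein genes 0 rose and 2 fell (median -0.06). RPL22 fell from 606 ± 31.5 to 346 ± 55.4 and RPL6 from 43975 ± 3342 to 36112 ± 2437. RPL6 did not pass with quantile normalisation, with no filter on low values, or without DMSO library 2 or ciclopirox library 2 or 3. This list was sensitive to scaling: with quantile normalisation 25 members rose (median 0.18), with median-centring 8 fell, and 14 rose without DMSO library 1. Ribosomal proteins, GAPDH and EIF5A have near-identical pseudogene or gene copies, and their counts are uncertain where reads were split among copies.

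The E-box CACGTG, which MYC and MAX bind, was found in 16 of 42 promoters of ribosome biogenesis genes (38.1%), against 9.75% of promoters of all genes tested. In most of these promoters the match lay at or after the gene start, and with bases before the start only the share was 11.9% against 8.58%. HIF targets outside glycolysis, which mostly rose, had an E-box in 33.3% of 21 promoters, and in the same share with bases before the start only. Every E-box also counts as a match to ACGTG, which it contains.

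MYC partners moved less than MYC. Of 10 genes of the network 3 rose and 5 fell, or 3 with quantile normalisation. The repressor genes MXD4 and MXD1 had log2 differences of 0.75 and 0.59, and MGA, a large MAX partner, had -0.95. Translation and mTORC1 genes fell in 19 of 32 cases and rose in 7; the rises were 4 with median-centring or without DMSO library 2 and 11 with quantile normalisation. The scaffold gene EIF4G1 and the initiation factor gene EIF1AX had -1.24 and -1.35. The rises were led by DDIT4, SESN2 and SESN1, which restrain mTORC1, and by EIF4EBP1, which restrains eIF4E. Their log2 differences were 4.11, 2.69, 2.08 and 1.34.

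Heat shock chaperones fell in 20 of 24 cases with no rise (median -1.26). HSP90AA1, the inducible cytosolic HSP90, had 110272, 119583 and 119792 normalised counts in the DMSO libraries and 36722, 31721 and 38038 in the ciclopirox libraries. CHORDC1, FKBP4 and STIP1, co-chaperones of HSP90, had log2 differences of -1.73, -1.72 and -1.44. HSPH1 and HSPA4, nucleotide exchange factors of HSP70, had -1.63 and -1.56.

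Endoplasmic reticulum chaperones fell in 13 of 21 cases and rose in 3 (median -0.56). HSPA5 (BiP) had 15556, 15059 and 14659 with DMSO and 4646, 4699 and 4604 with ciclopirox, and HSP90B1 (GRP94) fell by 1.78 on the log2 scale. MANF and HYOU1 had -1.17 and -1.10. EDEM1, which hands misfolded glycoproteins to degradation, was the exception of greatest size, at 0.99.

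Splicing genes fell by less. Of 42 core spliceosome genes 28 fell and 2 rose (median -0.42), and of 35 SR protein, hnRNP and kinase genes 23 fell and none rose (median -0.47). With quantile normalisation the falls were 14 and 15, and 3 genes of the SR and hnRNP list rose; the rise in the spliceosome list was 1 gene with median-centring or without DMSO library 2 or 3 or ciclopirox library 1 or 2. HNRNPA2B1 fell from 78081 ± 1765 to 38223 ± 465, HNRNPR from 21192 ± 415 to 10332 ± 431, and SNRPA1, a U2 snRNP protein, from 5058 ± 554 to 2474 ± 59.0. DHX15, the helicase that the rest of the series depletes, had 14498, 16688 and 16311 normalised counts in the DMSO libraries and 9218, 8967 and 10216 in the ciclopirox libraries. Its log2 difference was -0.74 (SE 0.0920, limma adjusted p = 8.7e-05), and all ciclopirox libraries were below all DMSO libraries. Among 33 DEAH helicases and G-patch proteins 18 fell and 3 rose; the rises were 5 with edgeR, with TMM scaling or without DMSO library 1 and 6 with quantile normalisation. DHX33, which acts in ribosomal RNA synthesis, fell from 2026 ± 124 to 596 ± 101, and the G-patch protein gene GPATCH4 had -1.10.

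**Figure D3:**
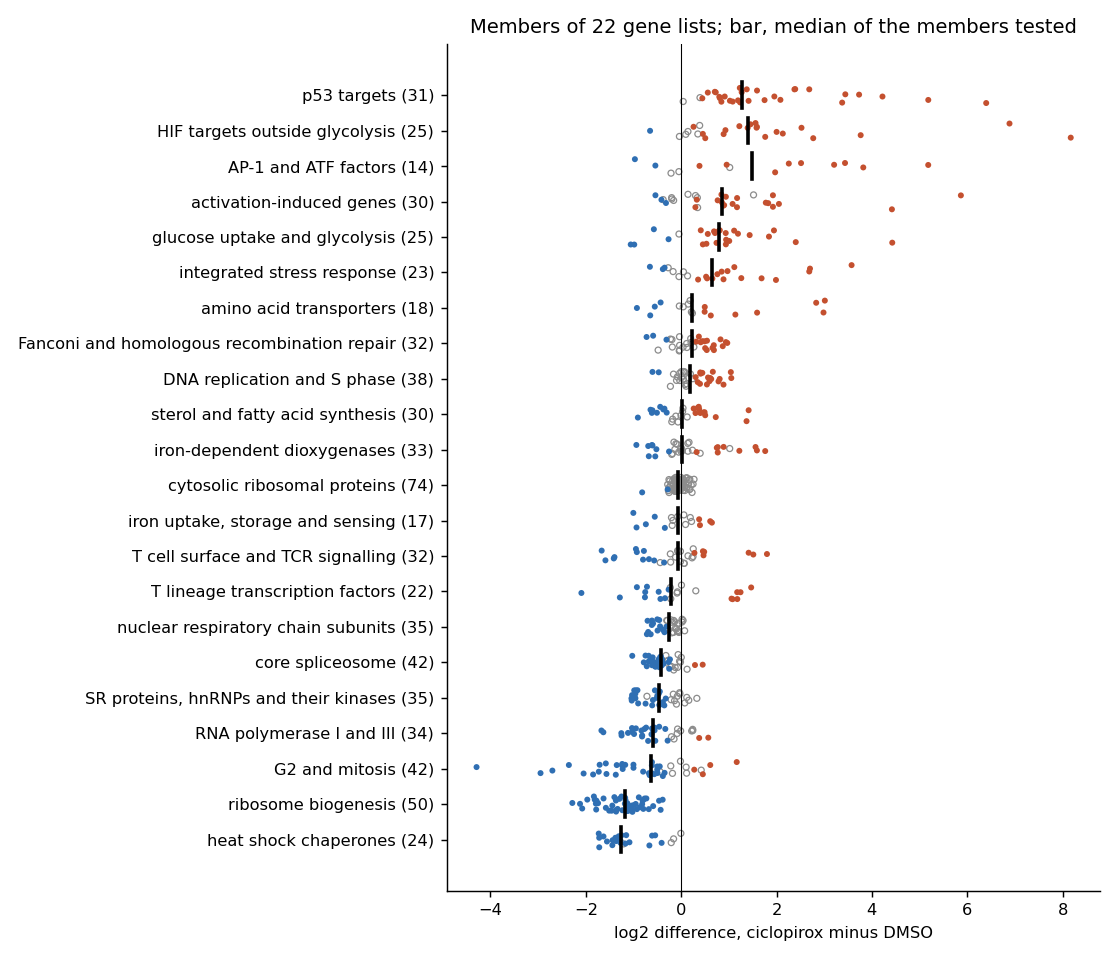
Log2 differences, ciclopirox minus DMSO, of the members of 22 gene lists (filled red or blue, called higher or lower; open grey, not called; the number tested is in brackets), with a black bar at each median. Medians run from 1.49 for AP-1 and ATF factors to -1.26 for heat shock chaperones, and cytosolic ribosomal proteins cluster at 0.

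Of 42 genes of G2 and mitosis 31 fell and 4 rose, or 2 without DMSO library 2 or 3 (median -0.64), and genes of DNA replication and S phase rose in 17 of 38 cases and fell in 2 (median 0.18). In bulk RNA, fewer cells in a phase and less RNA per cell cannot be told apart. Stretches of 4 mitotic promoters are shown because they carry the elements through which such genes are known to be controlled in the cycle: the cell cycle homology region TTTGAA or TTCGAA and the CCAAT box, which the factor NF-Y binds. They run 5′ to 3′ on the gene's strand and end at the last base before the start (RefSeq, GRCh38.p14), with matches on either strand in capitals.
CDC20 (chr1:43358871-43358980, plus strand): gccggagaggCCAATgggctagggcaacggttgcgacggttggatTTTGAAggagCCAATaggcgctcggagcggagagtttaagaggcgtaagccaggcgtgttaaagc
PLK1 (chr16:23678789-23678888, plus strand): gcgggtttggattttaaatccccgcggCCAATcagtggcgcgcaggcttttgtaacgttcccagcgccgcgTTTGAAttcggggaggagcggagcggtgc
HMMR (chr5:163460552-163460631, plus strand): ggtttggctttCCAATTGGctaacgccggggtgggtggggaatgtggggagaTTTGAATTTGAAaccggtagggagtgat
CCNB1 (chr5:69167050-69167149, plus strand): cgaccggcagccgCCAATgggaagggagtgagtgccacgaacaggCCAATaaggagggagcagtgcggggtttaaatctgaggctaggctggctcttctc
No TTTGAA or TTCGAA lies in the CCNB1 window. PLK1, a mitotic kinase, had 9704, 7524 and 7423 with DMSO and 1418, 1361 and 1018 with ciclopirox. HMMR, a spindle protein, had 3049, 3876 and 4029 with DMSO and 975, 676 and 1021 with ciclopirox. CCNB1, cyclin B1, had 9423, 8294 and 8040.0 with DMSO and 1699, 1663 and 1656 with ciclopirox. In each gene the ciclopirox libraries lay below all DMSO libraries.

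The cell cycle homology region was found in 25 of 35 promoters of the G2 and mitosis list (71.4%), against 11.7% of promoters of all genes tested, and with bases before the start only in 51.4% against 10.2%. The CCAAT box was found in 71.4% against 36.6%. This share was not particular to the list. It was 90% for endoplasmic reticulum chaperones, 76.5% for kinesins and 70.8% for sterol and fatty acid genes. For DNA replication and S phase genes, where rises outnumbered falls, it was 62.5%. Among promoters of all genes at least 2-fold lower, the homology region was found in 17.9%.

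**Figure D4:**
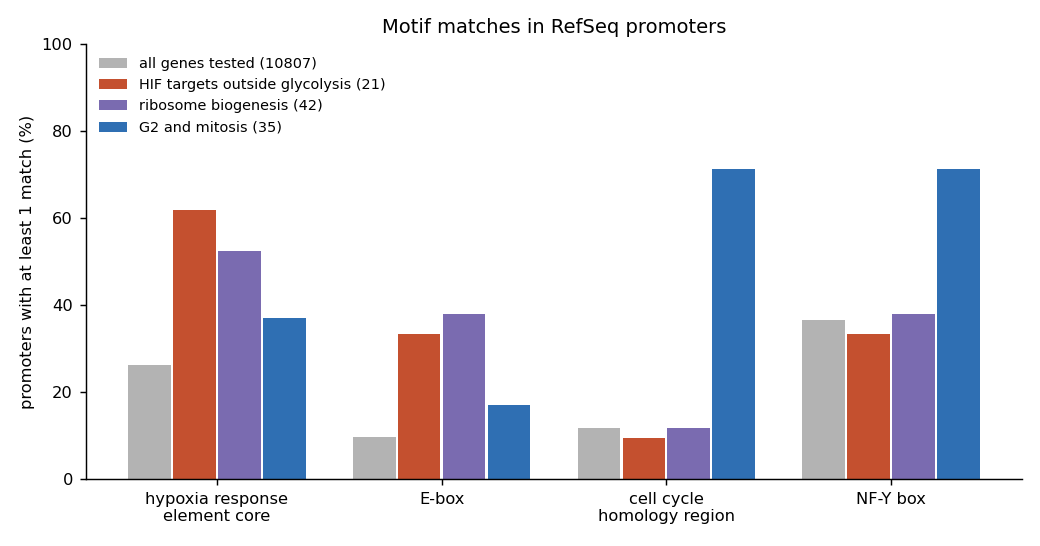
Percent of RefSeq promoters (250 bases before to 50 after the start) with at least 1 match on either strand, for all genes tested and 3 gene lists, with the number of promoters in brackets; the NF-Y box is the CCAAT box. Among the sets drawn, HIF targets stand highest for the hypoxia response element core (61.9%), ribosome biogenesis for the E-box (38.1%), and G2 and mitosis genes for the other elements (71.4% each). Ribosome biogenesis promoters also carry the hypoxia response element core in 52.4%, and HIF targets the E-box in 33.3%.

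PTTG1, securin, fell from 2984 ± 194 to 833 ± 112 and the kinesin gene KIF20A from 2822 ± 130.4 to 808 ± 66.2. Of 17 kinesin genes 8 fell and 1 rose; 5 fell without ciclopirox library 2, and 4 rose with quantile normalisation. On the S phase side LIG1, DNA ligase 1, rose from 5863 ± 656 to 12108 ± 577, CDT1, a licensing factor, from 4461 ± 792 to 9120.2 ± 897, and CDC45, a helicase subunit, from 3982 ± 446 to 7359 ± 681. With quantile normalisation 26 S phase genes rose. Of 32 Fanconi and recombination genes 15 rose and 3 fell, led by the exonuclease gene EXO1 (0.97), while the checkpoint kinase gene ATR had -0.73; 5 fell with median-centring or without DMSO library 1.

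Genes of the G1 to S passage went both ways, with 11 rises and 9 falls among 23. Cyclins E1 and E2 (CCNE1, CCNE2) rose from 458 ± 47.2 to 1433 ± 63.3 and from 1968 ± 262 to 6187 ± 969.8. The E2F genes E2F8 and E2F2 had log2 differences of 1.38 and 1.19. CDK6, the G1 kinase of T cells, fell from 39687 ± 7697 to 17695 ± 2604. CDKN1A, described above among p53 targets, had the rise of greatest size of this list.

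Of 22 T lineage transcription factor genes 6 rose and 10 fell (median -0.22, and 0.03 with quantile normalisation). IKZF2 (Helios) had 732, 1798 and 1902 normalised counts in the DMSO libraries and 209, 388 and 395 in the ciclopirox libraries. DMSO library 1 lay well below DMSO libraries 2 and 3 in this gene, but above all ciclopirox libraries. BCL11B, a guardian of T cell commitment, had 7925, 10322 and 10512 with DMSO and 3908, 3492 and 4339 with ciclopirox, and GATA3 had a log2 difference of -0.75. RUNX3 rose from 1790.1 ± 134 to 4959 ± 481, ID3, an inhibitor of E proteins, by 1.24, and the leukemia gene TAL1 by 1.06.

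Of 32 T cell surface and receptor signalling genes 7 rose and 11 fell (median -0.07), and 13 rose with quantile normalisation; the counts are near the 23.5% and 25.0% of all genes tested, and single members are described. The recombinase gene RAG1 had 267, 327 and 282 with DMSO and 90.8, 109.7 and 128 with ciclopirox. Its partner RAG2 had 188, 329 and 261 with DMSO and 107, 60.5 and 75.7 with ciclopirox, and neither gene's groups overlapped. CD1B, a marker of cortical thymocytes, fell from 10156 ± 855 to 3368 ± 35.2. CCR7, a homing receptor of mature T cells, rose from 294 ± 23.1 to 1029.9 ± 131, CD38 from 2054 ± 233 to 5464 ± 415, and CD4 from 186 ± 32.3 to 528 ± 10.7.

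Of 14 NOTCH receptors and targets 5 rose and 5 fell; 3 rose with a minimum of 50 normalised counts, and 3 fell with quantile normalisation or without ciclopirox library 1 or 3. NOTCH3 rose from 702 ± 62.9 to 1936 ± 179.8 and HES4, of the HES family, from 192 ± 70.6 to 668 ± 163, whereas HES1 had a smaller log2 difference of 0.72 (adjusted p = 0.0196) and did not pass with quantile normalisation or without ciclopirox library 1 or 3. SHQ1, a target of NOTCH1 in T-ALL that assembles H/ACA ribonucleoproteins, fell from 6106 ± 131 to 2367 ± 93.7.

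Of 35 nuclear genes of respiratory subunits 14 fell and none rose (median -0.27), led by the ATP synthase genes ATP5F1B (-0.72) and ATP5MC1 (-0.71) and by SDHB (-0.69), an iron-sulfur subunit. DMSO library 1 stood apart in this list. Relative to the DMSO mean, the list medians of the DMSO libraries were 0.213, -0.105 and -0.109. Those of the ciclopirox libraries were -0.212, -0.172 and -0.420. Of 13 genes of the mitochondrial genome 5 rose and 3 fell, going both ways, with MT-ND4 at 0.53 and MT-ND5 at -0.42. Autophagy and mitophagy genes rose in 15 of 31 cases and fell in 3, or 5 with median-centring. The receptor gene OPTN rose from 1056 ± 53.3 to 2787 ± 217 and WIPI1 from 786 ± 124 to 2262 ± 46.4.

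NRF2 targets rose in 1 of 14 cases and fell in 6; 4 rose with quantile normalisation and 2 without DMSO library 1. The rise was SLC7A11, and PRDX1, GCLM and GCLC had -0.69, -0.67 and -0.46. Sterol and fatty acid genes rose in 12 of 30 cases and fell in 10 (median 0.01); 6 rose with median-centring or without DMSO library 2, and 7 without DMSO library 3 or ciclopirox library 1. ACSS2 had 1.41 and FASN -0.91. Interferon-stimulated genes rose in 11 of 31 cases and fell in 4, and the rises were 7 without DMSO library 3 and the falls 7 with median-centring. ISG20, an exonuclease gene, rose from 65.9 ± 22.7 to 328 ± 4.37. Of 8 metallothionein and zinc genes 3 rose and 5 fell (median -0.42). The importer SLC39A10 had -1.73, SLC39A6, another importer, -0.86, and the metallothionein MT2A 0.79.

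The series also depleted DHX15 with hairpins in the same line, in a separate table with its own shGFP controls, so the 2 experiments share no library. Their treatments, tables and units differ, and no test was made between them. With the hairpins 4319 of 15022 genes tested (28.8%) were higher with both hairpins and 3070 (20.4%) were lower. Over 10690 genes in both, 1255 of 2477 genes higher with ciclopirox (50.7%) also rose with each hairpin, and the same held for 30.2% of all; they made up 38.9% of the genes higher with both hairpins. Of 3257 genes lower with ciclopirox, 1440 (44.2%) were lower with both hairpins, against 22.7% of all, and made up 59.4% of those. Opposite moves were rarer, at 7.27% of the rises and 13.1% of the falls. Across genes the log2 differences had a Pearson r of 0.50 with shDHX15-1 and 0.31 with shDHX15-2, as a description, since genes are not independent replicates.

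The single genes given first here were picked because they were called in the same direction with ciclopirox and with both hairpins. Here and below, hairpin values are differences of log2(RPKM + 1), which understate changes of genes near or below 1 RPKM. Sizes are therefore not to be compared between the experiments for such genes. DDIT4 had 4.11 with ciclopirox, 3.12 with shDHX15-1 and 2.44 with shDHX15-2, and AK4 had 3.76, then 2.76 and 2.26 in the same order. AK4 was low in the controls, with a mean RPKM of 0.455 with shGFP, 8.87 with shDHX15-1 and 5.98 with shDHX15-2. BHLHE40 had 2.77 with ciclopirox and was higher with both hairpins, EGLN3 had 1.59, then 1.72 and 1.51, and JUN 5.18, then 2.17 and 1.42. Other large rises with ciclopirox were not shared by both hairpins. PFKFB4 had 4.43, then 1.48 and 0.10, ATF3 3.82, then 0.11 and -0.17, and TNFSF9 3.56, then -0.24 and -0.57. Among the shared falls HSPA5 had -1.70, then -1.53 and -1.03, SHQ1 -1.37, then -1.13 and -0.92, and AHSA1, which activates HSP90, -1.27, then -1.06 and -0.85. HIF targets outside glycolysis were higher with both hairpins in 21 of 23 cases, and ribosome biogenesis genes were lower with both in 46 of 50.

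Other genes went opposite ways. FOS had 3.44 with ciclopirox, -2.78 with shDHX15-1 and -2.90 with shDHX15-2. The mean RPKM of FOS was 7.71 with shGFP, 0.264 with shDHX15-1 and 0.165 with shDHX15-2, so its hairpin differences are understated. EGR1 had 1.92, then -5.29 and -5.28, and DUSP6, a phosphatase of the ERK pathway, 0.90, and was lower with both hairpins. TXNIP had 2.62, then -1.56 and -0.63. GIMAP5 and GIMAP8, GTPase genes of lymphocyte survival, had -1.51 and -0.82 with ciclopirox and were higher with both hairpins.

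As lists, p53 targets, stress response, mitotic and sterol genes gave other counts with the hairpins than with ciclopirox. The differences between the tables were not tested. Over all genes in both, 30.2% were higher and 22.7% lower with both hairpins. The hairpin counts of p53 targets and of mitotic genes are near these shares. Of 29 p53 targets found in both, 28 rose with ciclopirox, while 9 were higher and 7 lower with both hairpins. CDKN1A had 0.58 with shDHX15-1 and -0.01 with shDHX15-2, and BBC3 0.47 and 0.33. The BBC3 values are understated by the log2(RPKM + 1) scale. Its mean RPKM was 0.741 with shGFP, 1.40 with shDHX15-1 and 1.19 with shDHX15-2. Of 23 stress response genes in both, 15 rose and 3 fell with ciclopirox, while 3 were higher and 12 lower with both hairpins. Of 42 G2 and mitosis genes in both, 31 fell with ciclopirox, while 10 were higher and 11 lower with both hairpins. Of 30 sterol and fatty acid genes in both, 12 rose and 10 fell with ciclopirox, while 1 was higher and 25 were lower with both hairpins.

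**Figure D5:**
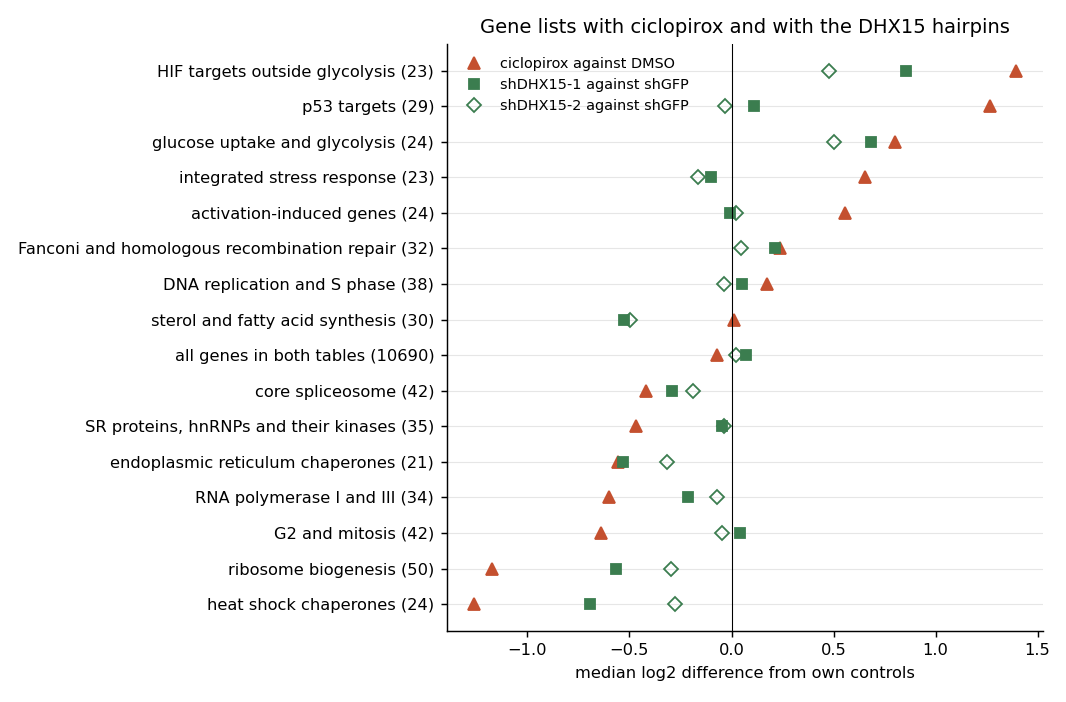
Median log2 difference from own controls of 15 gene lists and of all 10690 genes in both tables (number in both tables in brackets), for ciclopirox (triangles), shDHX15-1 (filled squares) and shDHX15-2 (open diamonds). HIF targets, ribosome biogenesis and heat shock chaperones lie on the same side in all 3 comparisons. So do the lists of glycolysis, Fanconi and recombination genes, core spliceosome, SR proteins and hnRNPs, RNA polymerases and endoplasmic reticulum chaperones. The p53 targets have a median of 1.27 with ciclopirox, 0.11 with shDHX15-1 and -0.03 with shDHX15-2.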

How the data were processed

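Poly(A)+ RNA of CUTLL1 cells was sequenced as read pairs, per the labels' protocols. The authors deposited 1 table with normalised counts per gene, a signal scale of counts divided by a size factor per library, and 1 table of RPKM values for the hairpin libraries. The submitters' processing notes name STAR 2.4.1.7 and 2.7.5c and DESeq2 1.32.0 among their tools, with no role given. Fold changes and p-values in the deposited table were not used. Columns were matched to the labels by dose and replicate in their names.

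The steps of the deposited normalised counts gave whole reads for 100% of values within 0.01, so depth was known (32451469 to 37177509 reads in genes). Genes with at least 10 normalised counts in at least 3 of 6 libraries were kept (16825 of 23037) and log2(value + 1) was tested with limma 3.58.1 (trend) in R 4.3.3, with Benjamini-Hochberg adjustment over all genes tested. Fold changes on that scale are understated for low genes, and all are relative to the deposited size factors. RPKM values were tested in the same way on log2(RPKM + 1), for genes with at least 1 RPKM in at least 3 libraries. Changes of genes near or below 1 RPKM are understated on that scale. The fit was tested on simulated data.

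Genes were named by rule: those tied to the study's question or to iron, the 20 largest rises and 20 largest falls with a mean of at least 100, up to 6 members of each list with a mean of at least 50, members at 0 with DMSO, the 5 genes called with the highest mean, and the leading genes shared with or opposed to the hairpins. A few genes that the rule takes are not reported here. Members and lists were chosen with earlier results of these data known. Alternatives were edgeR 4.0.16 and DESeq2 1.42.0 on the recovered reads, other pseudocounts, filters and scalings, a replicate block, and leaving out each library. Figures were drawn with matplotlib 3.10.9 in Python 3.11.15.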

Additional observations from a re-analysis of the deposited data

How the results depend on the processing

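The number of genes called was 8157, and 7547 to 8436 under the other tools, pseudocount, filters, scalings and the replicate block, within 1.5 times in each case and in each direction. Leaving out 1 library gave 6447 to 9055. Replicate numbers did not pair the libraries (correlations of same-numbered deviations 0.105, -0.108 and 0.163), and the replicate block gave 8436 calls; with it DOHH passed as lower (limma adjusted p = 0.0449), and no other named gene changed its call. The share of rises among genes called, 48.5%, was 40.1% with median-centring and 52.0% with TMM scaling. Of 211 genes named with values, 202 kept their call under every alternative and 1 changed sign. That was FTH1, not called in any of these cases, at -0.0316 with median-centring and, with 1 library left out, at -0.0165 without DMSO library 3, -0.00377 without DMSO library 2 and up to 0.189 without DMSO library 1; the cause was not tested. Of genes higher with ciclopirox, 50.7% were higher with both hairpins, 67.9% for the mean of both hairpins and 57.3% with a 2-fold minimum. Of genes lower with ciclopirox these shares were 44.2%, 58.4% and 56.0%; the cause was not tested. With 3 libraries per group and a median standard error of 0.145, small changes may have been missed.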

Other observations

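Some gene families that no list above held also moved together; they were chosen after their values were seen, so their counts are descriptions. Of 35 proteasome subunit genes (PSMA to PSMD symbols) 26 fell and none rose (median -0.52), led by PSMA5, which fell from 8928 ± 716 to 4109.7 ± 127 normalised counts (SD, n = 3), and PSMD1, from 6763 ± 167 to 3283 ± 152. Of 19 mitochondrial import genes (TIMM and TOMM symbols) 15 fell and none rose (median -0.69), such as TIMM13 (-1.18) and TIMM17A (-1.12). Of 36 genes with HIST symbols 22 fell and none rose (median -1.81), but with a minimum of 50 normalised counts 8 fell; histone genes are near-identical copies, mostly without poly(A), and these libraries were selected for poly(A). HIST1H2BH had 264, 213 and 177 with DMSO and 22.9, 18.9 and 28.7 with ciclopirox. T cell receptor V segments fell in 12 of 26 cases and rose in 1 (median -0.89), such as TRBV28 (-1.39), and these too belong to families of similar sequence.

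Rises in families were in cytokine and membrane genes. Of 32 interleukin and interleukin receptor genes 17 rose and 2 fell (median 0.53). IL10 had 30.2, 10.9 and 46.0 with DMSO and 149, 116 and 152 with ciclopirox. IL22RA1 had 80.8, 106 and 86.9 with DMSO and 386, 413 and 421 with ciclopirox, and IL23A had 77.2, 82.5 and 77.7 with DMSO and 234, 151 and 188 with ciclopirox. IL19 overlaps IL10. Of 15 tetraspanin genes 8 rose and none fell (median 0.50), and without ciclopirox library 1 the rises were 5. TSPAN15 and TSPAN4 had log2 differences of 1.26 and 1.14. Circadian regulators, a list made like those of the sections above, did not move together. Of 14 tested 3 rose and 5 fell, beside 23.5% and 25.0% of all genes tested. NR1D2, a nuclear receptor of the circadian loop, fell from 468 ± 108 to 132 ± 29.2, whereas BHLHE40 had a log2 difference of 2.77.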
